A study of Drosophila melanogaster with 2 samples.

Results

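Chromatin bound by a Doc2-eGFP fusion protein was examined at Raf and at 9 genes of the epidermal growth factor (EGF) receptor pathway of Drosophila melanogaster: Egfr, spi, vn, rho, S, aos, pnt, aop and sty. A peak was given to a gene when the gene had the transcription start site (TSS) of a protein-coding transcript nearest to the summit, or when the summit lay in the body of the gene. By this rule 12 of the 1140 peaks of the series list on X, 2L, 2R, 3L, 3R and 4 belonged to these genes, as did 393 of the 140206 peaks of the ranked list from which the thresholded peaks were taken. The genes were listed by pathway after results of these peak lists were known, and their peaks were selected on summit position in the same lists, so the counts and levels describe them and no test was made. The data came from ChIP-seq, the sequencing of DNA precipitated with a protein, here with an antibody that the sample descriptions give as anti-GFP and the antibody field as Doc2. The material was whole embryos of the transgenic strain Doc2-GFP, aged 0 to 18 h. There was 1 group of 2 biological replicates from the same strain, and each value is therefore an average over all cells and stages of the collection. The labels do not name the sequence that drives the transgene, and no group without the fusion protein was analysed here.

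In this pathway, ligands of the EGF receptor start a cascade in which Ras activates the kinase Raf, and the cascade ends in the nucleus at ETS transcription factors. The embryo limits the signal through inhibitors whose genes the pathway itself can switch on. In fly embryos it is known for patterning the ventral ectoderm and for roles in the trachea, in muscle precursors and in the nervous system. Doc2 is a T-box transcription factor of the Dorsocross group, known from the amnioserosa, the dorsal ectoderm and the heart.

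The sequences shown here are the 201 bases around a peak summit. They are from the series peak of highest signal at each of the 5 genes that had one. A Raf peak that holds a GA repeat and the intronic aop peak are added. The description of motifs below rests in part on these windows, all of which hold a match, and in part on windows not shown. The sequences are the plus strand of dm6, read from the RefSeq copy of that assembly. Capitals mark matches, on either strand, to 6 motifs: GGTGTGA (T-box), ACAGTG, TATCGATA (DNA replication-related element), GAGAG (GAGA factor), CAGGTAG (Zelda) and TAATTA (homeodomain).
Raf intron, highest signal, chrX:2297627-2297827: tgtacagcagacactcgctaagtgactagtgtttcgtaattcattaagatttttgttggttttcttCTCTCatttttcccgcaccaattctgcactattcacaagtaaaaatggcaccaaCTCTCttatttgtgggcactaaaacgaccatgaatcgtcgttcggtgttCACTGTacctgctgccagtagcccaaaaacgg
Raf intron, GA repeat, chrX:2302192-2302392: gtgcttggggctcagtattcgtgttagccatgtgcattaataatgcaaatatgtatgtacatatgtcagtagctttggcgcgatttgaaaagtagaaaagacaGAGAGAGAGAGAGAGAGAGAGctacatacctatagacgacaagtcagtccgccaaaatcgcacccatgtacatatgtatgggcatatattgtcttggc
spi intron, chr2L:19575660-19575860: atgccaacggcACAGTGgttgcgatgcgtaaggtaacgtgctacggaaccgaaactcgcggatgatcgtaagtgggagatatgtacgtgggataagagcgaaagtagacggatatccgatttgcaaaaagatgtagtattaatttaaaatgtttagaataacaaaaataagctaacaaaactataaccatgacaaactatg
aos intron, chr3L:16480469-16480669: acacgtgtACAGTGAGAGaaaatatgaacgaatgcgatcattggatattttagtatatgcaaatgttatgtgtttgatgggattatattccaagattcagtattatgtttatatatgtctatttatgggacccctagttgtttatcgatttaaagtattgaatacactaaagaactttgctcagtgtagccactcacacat
S intron, chr2L:1075826-1076026: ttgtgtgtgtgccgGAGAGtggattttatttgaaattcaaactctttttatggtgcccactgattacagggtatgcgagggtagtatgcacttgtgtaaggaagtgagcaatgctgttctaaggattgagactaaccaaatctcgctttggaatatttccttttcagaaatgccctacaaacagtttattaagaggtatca
aop upstream, highest signal, chr2L:2179436-2179636: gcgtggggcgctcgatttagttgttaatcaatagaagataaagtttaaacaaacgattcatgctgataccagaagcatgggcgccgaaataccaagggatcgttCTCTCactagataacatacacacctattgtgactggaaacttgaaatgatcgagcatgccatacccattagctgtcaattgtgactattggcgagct
aop intron, chr2L:2163578-2163778: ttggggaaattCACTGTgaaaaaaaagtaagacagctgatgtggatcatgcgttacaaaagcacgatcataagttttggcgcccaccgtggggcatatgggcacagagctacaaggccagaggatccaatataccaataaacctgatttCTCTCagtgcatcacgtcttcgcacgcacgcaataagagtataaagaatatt

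Of the 12 peaks, 4 had ACAGTG within 100 bp of the summit, 7 had GAGAG, 1 had CAGGTAG and 1 had TAATTA, while GGTGTGA and TATCGATA were in none. At least 1 of the 6 motifs was in 10 of the 12 windows of 201 bases, against 53.5% of the windows of all series peaks. The Raf windows around the summits at 2296292 and 2304106 held no match. ACAGTG occurred at the spi peak, the aos peak, the intronic aop peak and the Raf peak of highest signal. At spi and aop it began 89 bp to the left of the summit, at aos 92 bp to the left and at Raf 69 bp to the right, so that none of the 4 matches was within 50 bp of a summit. At aos it shared its last base with a GAGAG match. The GAGAG matches were at 3 of the 6 Raf peaks, at 2 of the 3 aop peaks and at the S and aos peaks. The Raf peak with the summit at 2302292 held 9 overlapping copies of GAGAG in an unbroken GA repeat, and the Raf peak of highest signal held 2 separate copies. Over windows of the same length, ACAGTG was in 22.6% of all 1140 series summits, in 8.07% of the 138992 ranked peaks under the threshold and in 9.72% of 19253 protein-coding TSSs. For GAGAG the shares were 25.4%, 23.3% and 25%, for CAGGTAG 0.614%, 1.26% and 1.08%, and for TAATTA 14.4%, 9.31% and 9.39%. GGTGTGA was in 1.58%, 1.49% and 1.99%, and TATCGATA in 2.02%, 0.322% and 6.45%. The mean GC content of the 12 windows was 40.7%, against 39.1% over the series summits and 46.9% over the ranked peaks under the threshold. A match describes the letters in a window and is no evidence of binding by the factor named.

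Of the 10 genes, 5 had a peak in the series list: Raf, spi, aos, S and aop. The share over all 13945 protein-coding genes was 7.88%. The 10 genes are long, with a median of 25962 bp against 2166 bp over all genes, and they had a median of 40 ranked peaks each against 5. The gene with the fewest ranked peaks, spi, had 12, and among the 3908 genes with at least that many 15.3% had a series peak, a comparison added after the data were seen. Those 3908 genes had a median of 6565 bp and of 23 ranked peaks, so they are not matched to the 10 genes in length or peak number. The receptor gene Egfr itself had no peak in any thresholded list. In the ranked list, 12 of the 393 peaks at the 10 genes (3.05%) reached the lowest score of the thresholded lists, 830, against 0.866% of all ranked peaks. Of all ranked peaks 1214 reached it, while the series list held 1140, so a peak can reach this score and be absent from that list. The score is the authors' scaled irreproducible discovery rate (IDR), and 830 stands for an IDR of 0.01. Raf gave 6 of its 48 ranked peaks (12.5%), aop 3 of 25 (12%), spi 1 of 12, aos 1 of 26 and S 1 of 39. Without Raf the share was 1.74%, or 6 of 345.

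Raf encodes the kinase that phosphorylates the MAP kinase kinase, and it is shared with other receptor tyrosine kinases. The gene (FBgn0003079; chrX:2295466-2343870, plus strand) held 6 series peaks. Among all genes only CHES-1-like had as many, and kirre followed with 5. The signal of a peak, the value that the authors' peak caller gave it, is used here as deposited, with no scale named in the labels. In the own ranked list of each replicate, the value is that of the overlapping peak with the nearest summit. The peak of highest signal (chrX:2297639-2297794) lay 2261 bp downstream of the outermost TSS, with a series signal of 241, against 168 in replicate 1 and 69.9 in replicate 2. It was rank 115 of 1140 in the series list. It was also the narrowest of the 12, at 156 bp, where the other 11 measured 350 bp, as did 1017 of all 1140.

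The other Raf peaks stood lower in signal. The one at 5194 bp had 148 in the series, 80.6 in replicate 1 and 72.9 in replicate 2. The one at 826 bp, in a 5' UTR exon, had 111 in the series, 78.9 in replicate 1 and 39.3 in replicate 2. These 3 peaks, with the one of highest signal among them, held the top Raf values in replicate 1, while in replicate 2 the peak at 826 bp fell behind the peak farthest from the TSS. The peak at 8640 bp had 89.5 in the series, 58.5 in replicate 1 and 34.5 in replicate 2. The peak at 6826 bp, with the GA repeat, had 72.8 in the series, 36.9 in replicate 1 and 36.7 in replicate 2, nearly equal in the replicates. Replicate 1 was the higher at 819 of all 1065 conservative peaks. At Raf it was the higher at each of the 5 peaks near the TSS, by a factor of 1.01 to 2.40. The 6th peak, 23130 bp from the outermost TSS, was the exception, with a series signal of 73.8, against 26.8 in replicate 1 and 50.05 in replicate 2.

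The first 5 Raf summits spanned 7814 bp, with gaps from 1435 to 2933 bp, and no other place on the analysed chromosomes held 5 series summits in that span, a length taken from Raf itself. All but the 5' UTR peak lay in intron 2 of 1 of the 2 annotated transcripts, and the other transcript starts downstream of all 6 summits. Between the fifth and the 6th summit, 14490 bp apart, the gene models place a Tirant transposable element (chrX:2308848-2317374). No summit of any of the 4 ranked lists lay inside it. How well reads can be placed in the element was not examined, so the lack of summits is no measure of binding there. The 6th summit was 1222 bp beyond the end of the element, and its nearest TSS was that of CG14050, a gene within the Raf intron, 7188 bp away. It counts for Raf only because it lies in the body of the gene, and it was also absent from the conservative list and from the thresholded list of either replicate.

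**Figure D1:**
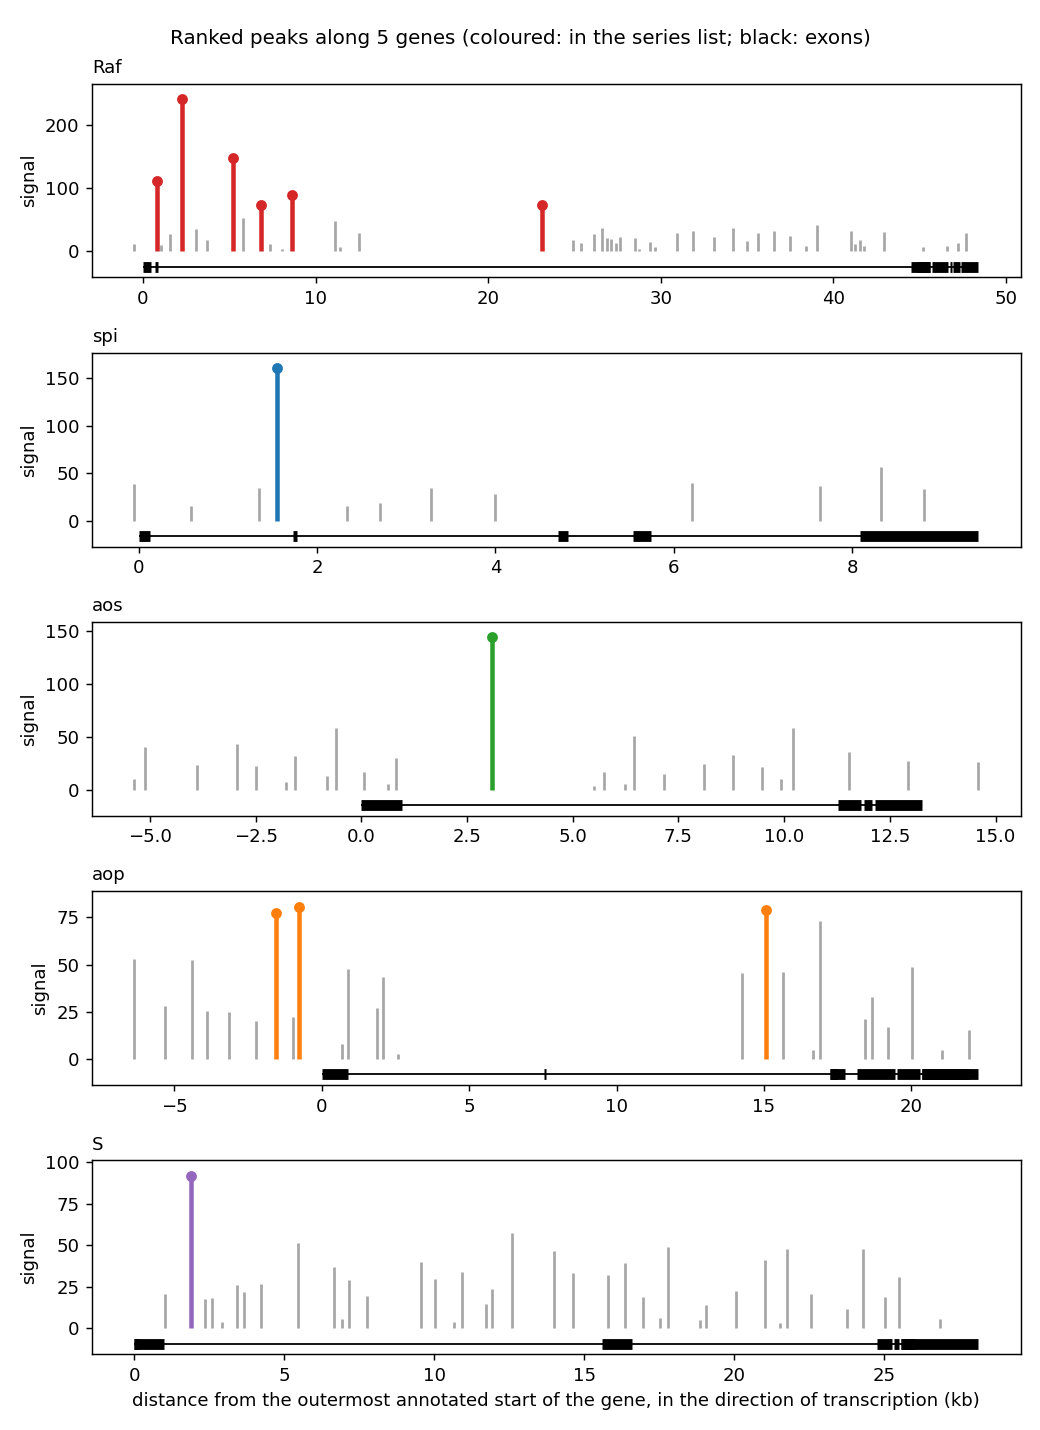
Signal of every ranked peak (vertical lines, authors' value) at Raf, spi, aos, aop and S, by distance from the outermost annotated start of the gene in kb, with exons in black under each panel. Coloured peaks are in the series list: 6 at Raf, 3 at aop and 1 at each of the others, and in each of these genes the grey peaks are lower in signal than the coloured ones.

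Of the genes that make or process ligands, spi and S had a peak, and rho and vn had none. The gene spi encodes Spitz, the main ligand, made as a membrane-bound precursor. Its peak (chr2L:19575585-19575934) had a series signal of 161, against 75.6 in replicate 1 and 89.6 in replicate 2, rank 262 of 1140. The summit lay in intron 1 of 2 of the 5 transcripts of spi (FBgn0005672; chr2L:19567900-19577315, minus strand), 173 bp upstream of an internal TSS and 1555 bp downstream of the outermost one. It was the only one of the 12 within 500 bp of a protein-coding TSS, where 44.1% of all series summits were. It was higher in replicate 2, unlike most of the Raf peaks.

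The gene S encodes Star, which carries the Spitz precursor from the endoplasmic reticulum to the compartment where it is cut. Its peak (chr2L:1075751-1076100) had a series signal of 91.8, against 55.9 in replicate 1 and 30.0 in replicate 2. The summit lay in intron 1 of both transcripts, 1885 bp downstream of the nearest TSS of S (FBgn0003310; chr2L:1049674-1077815, minus strand). The peak reached a score of 992 in the ranked list behind the series list but 787 in the ranked list that compares the replicates, and it was in neither the conservative list nor the thresholded list of a replicate. The gene rho encodes Rhomboid, the protease that cuts Spitz, and vn encodes Vein, a secreted ligand. Of the 23 ranked peaks at rho (FBgn0004635; chr3L:1463811-1468944, plus strand), the highest had a signal of 65.8, with 39.5 in replicate 1 and 21.8 in replicate 2, and lay in a coding exon 3256 bp downstream of the TSS, also within the body of Ptp61F. Of the 68 at vn (FBgn0003984; chr3L:5813338-5845664, minus strand), the highest had 74.5, with 33.6 in replicate 1 and 35.8 in replicate 2, and lay 5744 bp upstream. Both stayed under the threshold, with scores of 601 and 461.

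Among the inhibitors, aos had a peak in every thresholded list and sty in the conservative list alone. The gene aos encodes Argos, a secreted protein that binds Spitz and keeps it from the receptor. Its peak (chr3L:16480394-16480743) had a series signal of 144, against 60.9 in replicate 1 and 80.5 in replicate 2, rank 334 of 1140. The summit was 3081 bp downstream of the TSS, in the intron next to the first exon of aos (FBgn0004569; chr3L:16470386-16483650, minus strand), and also in an intron of CG33158, which overlaps the gene on the opposite strand. As at spi, the signal was higher in replicate 2. The gene sty encodes Sprouty, an intracellular inhibitor of receptor tyrosine kinase signalling. The ranked peak of highest signal given to sty (chr3L:3432677-3433026) had 87.9, with 53.9 in replicate 1 and 35.3 in replicate 2. It lay in an intron of eIF5B, 7917 bp upstream of sty (FBgn0014388; chr3L:3401153-3424935, minus strand). Its score was 931 where the replicates were compared and 531 in the ranked list behind the series list, so it is in the conservative list and not in the series list. With a signal of 87.9 it stood above 5 of the 12 series peaks of these genes, since the thresholds act on the score.

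Of the nuclear effectors, aop had 3 series peaks and pnt none. The gene aop encodes Yan, an ETS repressor that the pathway inactivates by phosphorylation, and pnt encodes Pointed, an ETS activator that competes with it. Both intergenic aop peaks lay upstream of the outermost TSS. The one 782 bp upstream had a series signal of 80.7, against 47.0 in replicate 1 and 39.4 in replicate 2. The one 1549 bp upstream had 77.4, with 35.5 in replicate 1 and 45.2 in replicate 2. The third aop peak (chr2L:2163503-2163852) lay in an intron of 3 of the 5 transcripts of aop (FBgn0000097; chr2L:2156484-2178754, minus strand), 2151 bp upstream of an internal TSS. It had 78.9 in the series, 39.2 in replicate 1 and 49.8 in replicate 2, and it was the only aop peak in the thresholded list of a replicate, that of replicate 2. All 3 were low among the series peaks, at ranks 872 to 942 of 1140, and the replicates disagreed on their order. The conservative list held 2 more, which overlap each other in the same intron, with signals of 73.3 and 4.59. They matched the same peak of each replicate. Of 56 ranked peaks at pnt (FBgn0003118; chr3R:23290231-23346167, minus strand), the highest had a signal of 61.6, with 35.9 in replicate 1 and 18.5 in replicate 2, in an intron 5666 bp upstream of an internal TSS. Its score was 237, and the best score of any pnt peak was 558.

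The receptor gene Egfr (FBgn0003731; chr2R:21522420-21559977, plus strand) had 55 ranked peaks, none past the threshold. The highest had a signal of 58.5, with 30.9 in replicate 1 and 29.6 in replicate 2, and a score of 553. It lay in an intron 9016 bp downstream of the nearest TSS of Egfr, while the TSS of CG30286 was nearer, 5359 bp away. Close to the threshold, the series peaks of lowest score at the 10 genes were the Raf peak at 6826 bp, with 838, and the distal upstream aop peak, with 840. Just outside it were an aop peak with a score of 781 (signal 73.3), a vn peak with 644 (signal 49.3) and the rho peak with 601.

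Over all 12 series peaks, 9 summits were in introns, 2 in intergenic sequence and 1 in a 5' UTR, where all series peaks gave 45.8%, 42% and 6.14%. The signal ran from 72.8 to 241 with a median of 90.7, against a median of 105 over all series peaks, and 5 of the 12 were above that median. They were 3 Raf peaks and those of spi and aos.

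**Figure D2:**
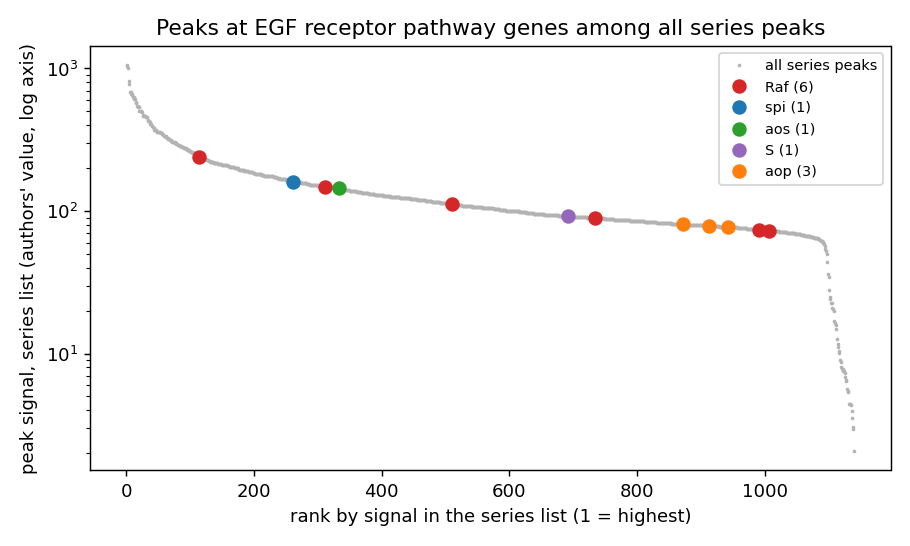
Signal of all 1140 series peaks (authors' value, log axis) against their rank by signal in the series list, with the peaks at Raf, spi, aos, S and aop in colour. The Raf peak of highest signal is at rank 115, the next Raf peak at 312 lies between spi at 262 and aos at 334, and the aop peaks sit between ranks 872 and 942.

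Each replicate also had a thresholded list of its own. In that of replicate 1, Raf, spi and aos had a peak (3 of 10 genes, with 5.57% of all genes), and in that of replicate 2 Raf, spi, aos and aop (4 of 10, with 3.42% of all genes). Raf had 5 peaks in the first and 2 in the second. Of the 5, 2 overlap each other near the 5' UTR exon, with signals of 78.9 and 11.8. The conservative list held 13 peaks at 5 of the 10 genes, with 7.31% of all genes, and had sty in place of S. In the ranked list that compares the replicates, 13 of 407 peaks at these genes reached the threshold (3.19%), against 0.817% of all. Of the 12 series peaks, 4 overlapped a thresholded peak of both replicates, namely spi, aos and the Raf peaks at 2261 and 5194 bp. That is 33.3%, against 33.9% of all series peaks. Another 5 met a thresholded peak of neither replicate, or 41.7% against 32% of all.

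Over the 13 conservative peaks, the median ratio of signal in the first to the second replicate compared was 1.14, against 1.23 over all 1065 conservative peaks. The first was higher at 9 of the 13, and at 819 of all 1065. The overlapping aop peaks carry the same pair of values, and over the 12 distinct pairs the median was 1.12, with the first higher at 8. Among all conservative peaks the first was higher at 784 of 1022 distinct pairs. The Raf peak of highest signal had the largest ratio, 2.40, and the peaks at spi, aos and 2 of the aop peaks had ratios from 0.757 to 0.844. A pair of values for each peak allows no estimate of the error of these ratios, and the scale between replicates is unknown.

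**Figure D3:**
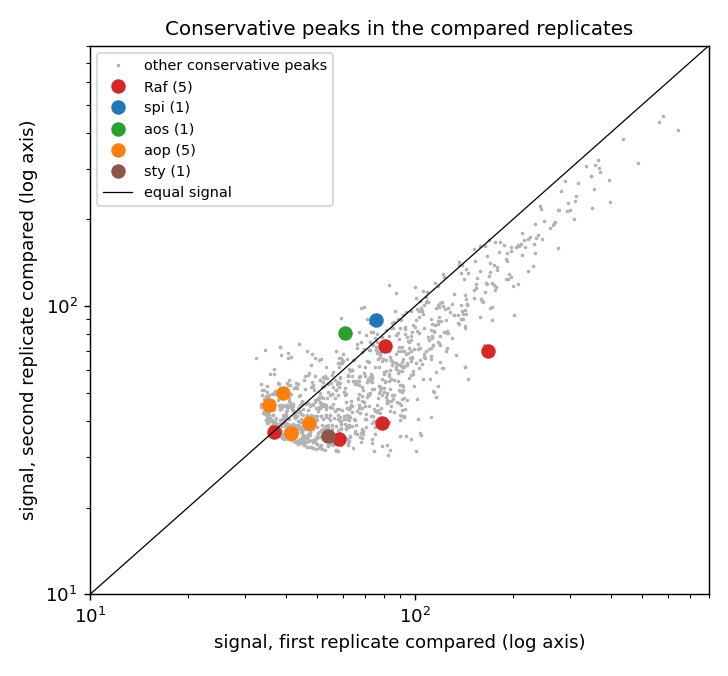
Signal of each of the 1065 conservative peaks in the first (x axis) and second (y axis) replicate compared, both on log axes, with the line of equal signal. The Raf peak of highest signal lies far to the right of the line at 168 and 69.9, while spi and aos lie above it.

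Every one of the 10 genes had ranked peaks in each replicate, so the highest of them can be compared across genes. It need not be the same peak in both replicates. At Raf it matched the series peak at 2261 bp in replicate 1 and that at 5194 bp in replicate 2. At aop it matched an upstream peak in replicate 1 and the intronic peak in replicate 2. In replicate 1 the order was Raf (168), spi (75.6), aos (60.9), S (55.9), sty (53.9), aop (47.0), vn (44.5), rho (39.5), pnt (39.1) and Egfr (36.6). The median of this value over 11898 genes with a ranked peak was 27.4, and the 95th percentile was 63.1. In replicate 2 the order was spi (89.6), aos (80.5), Raf (72.9), aop (49.8), vn (47.4), rho (44.5), S (37.8), sty (35.3), Egfr (32.9) and pnt (31.9), with a median of 26.1 and a 95th percentile of 49.2 over 11875 genes. Raf, spi and aos took the top 3 places in both replicates, and Egfr and pnt the last 2, with the order inside each set reversed or shifted between replicates. Raf and spi were above the 95th percentile in both, and aos and aop in replicate 2 alone. All 10 were above the median of all genes in both. The highest was taken from more ranked peaks at these genes than at most others (a median of 40 against 5), and the part of that number in the order was not tested.

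**Figure D4:**
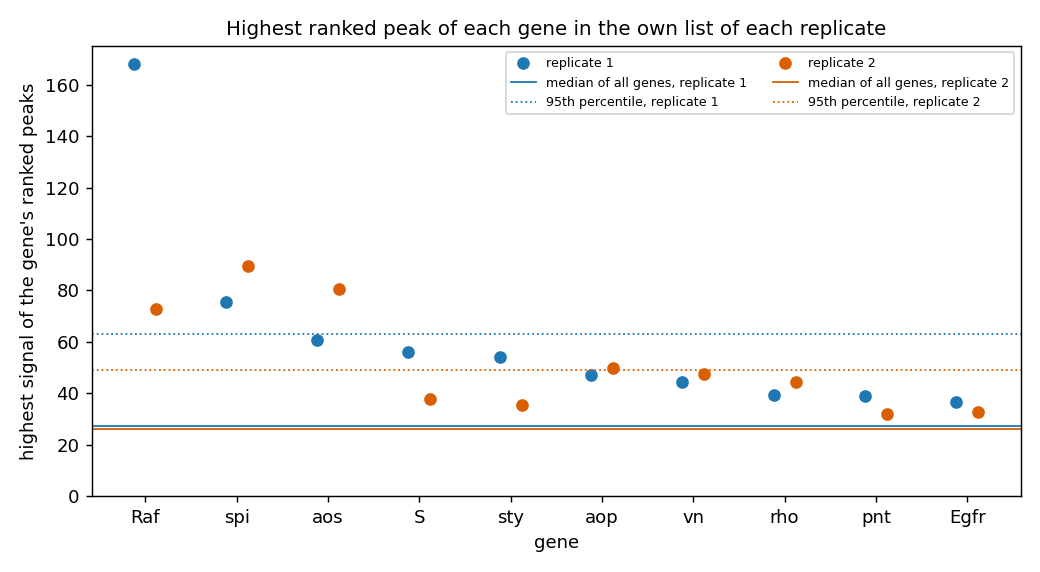
Highest signal among the ranked peaks of each of the 10 genes in the own list of replicate 1 (blue) and replicate 2 (orange), with the median and 95th percentile of the same value over all genes with a ranked peak. Raf, spi and aos are the top 3 genes in both replicates. Raf differs most between replicates, at 168 and 72.9, which are values of different Raf peaks.

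Of 24 other genes of the pathway, 8 had a series peak, against 7.88% of all genes. These were rl, RasGAP1, gro, drk, edl, cic, dos and ru. Their ranked peaks numbered from 2 at drk to 113 at rl, against a median of 5 over all genes, and the share among genes of like number was not computed. The gene rl encodes the MAP kinase at the end of the cascade, and its peak lay in an intron 25943 bp from the nearest TSS of the gene, with a series signal of 199, against 87.1 in replicate 1 and 112 in replicate 2. RasGAP1, which encodes a protein that switches Ras off, had 188, with 87.0 in replicate 1 and 96.3 in replicate 2, at 718 bp upstream. The corepressor gene gro had 186, with 92.1 in replicate 1 and 93.2 in replicate 2, in an intron 147 bp upstream of an internal TSS. These 3 genes, and none of the other 5, had a peak in the thresholded list of both replicates. The adaptor gene drk had 133, with 71.7 in replicate 1 and 55.9 in replicate 2, at a summit nearer to the TSS of mars. The gene edl, whose product binds Yan and Pointed, had 132, with 92.4 in replicate 1 and 41.1 in replicate 2. The signal of the highest series peak was 104 at cic, a repressor gene, 81.9 at dos, an adaptor gene, and 70.3 at ru, which encodes a Rhomboid protease. The ru peak also lay within the body of Ptp61F. The core genes Sos and Ras85D, which act before Raf, and Dsor1, the kinase after it, had no series peak. Ras85D and the ligand gene Krn had no ranked peak either. A series peak did lie within 5 kb of the body of Krn, but another gene had the nearer TSS. The 6 other receptor genes listed that signal through Raf were tor, sev, btl, htl, Alk and Pvr. None had a peak in the series list, the conservative list or the list of either replicate. With a series peak at 7.88% of all genes, 6 genes are too few to set them apart from genes in general. The count is therefore no contrast with the pathway genes. The highest ranked peak of these 6, at sev, had a signal of 68.4.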

How the data were processed

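ChIP-seq was done by the authors in 2 biological replicates of whole Doc2-GFP embryos, with chromatin sonicated to between 200 and 800 bp, per the labels. The authors deposited IDR thresholded and ranked peaks on dm6, per the deposited notes on the files, for each replicate and for the series. No source used here names the aligner or the peak caller, and the control is not analysed here. The deposited signal of each peak was used only to describe and rank peaks within a list. The deposited score is the scaled IDR, and its lowest value in the series list, 830, was taken as the threshold. Depth is unknown, so no counting interval is given. One of the 2 ranked lists of the series was taken as the comparison of replicates, because 89.7% of its first and 89.4% of its second compared values occur in the own lists of replicates 1 and 2.

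Gene models were Ensembl release 115 on the same assembly. Every member matched by symbol, and Gap1 of the wider list was matched to RasGAP1 through its RefSeq synonym. The gene rule recovered the known gene, distance and body for 200 of 200 planted summits. The rule for naming took all 10 members, up to 8 other pathway or receptor genes with a series peak, by highest signal, and neighbours whose body holds a member's peak or whose TSS is nearer. Other names (CHES-1-like, kirre, Tirant, the pathway and receptor genes without a peak) were chosen after their values were seen. The members, lists and motifs were chosen with earlier results of these data known. No test was made. Alternatives were other lists, thresholds, windows and gene rules. Python 3.11.15, numpy 2.4.6, pandas 2.3.3 and matplotlib 3.10.9 were used.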

Additional observations from a re-analysis of the deposited data

How the results depend on the processing

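The median replicate ratio (1.04 over all 407 ranked peaks, 1.11 over the 5 above the median signal, 1.12 over distinct pairs) stayed within 1.5 times under the alternatives tried. Over the 407 ranked peaks the first replicate was higher at 211. The median over all conservative peaks, 1.23, also lies within that factor, so the factor is too wide to show that the ratio is stable. The count of other receptor genes stayed at 0 of 6, where 2.83% to 17.2% of all genes had a peak. A factor cannot be applied to a count of 0, and so few genes say little about stability. The share of ranked peaks past the threshold was 3.19% in the other ranked list and 1.74% without Raf, alternatives added after the data were seen. The number of the 10 genes with a peak was 5 with the conservative list, with nearest TSS only (7.06% of all genes), with gene bodies only (4.22%) and with bodies and 5 kb (17.2%). It was 3 to 4 with 1 replicate left out, that is, in the own list of the other (5.57% and 3.42%), 3 among peaks above the median series signal (4.22%) and 3 where a thresholded peak of both replicates overlapped, by 1 bp or by 50% of the shorter peak (2.83%). For the 24 other pathway genes, beside the same shares of all genes, it was 3 to 7 with 1 replicate left out, 5 above that median, 3 under either overlap and 11 with bodies and 5 kb. The number of peaks was 5 to 7 with 1 replicate left out and 5 above that median. Within 500 bp of a TSS were 2 of 13 peaks in the conservative list (46.4% of all its peaks) and 0 of 12 with outermost gene starts only (34.6%), and 3 were within 1 kb (54.2%). Windows of 50 bp to either side held a motif at 6 of 12 summits (26.7% of all series summits). The cause of these shifts was not tested, beyond the smaller lists used. No paired analysis was possible because there was 1 group.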

Other observations

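Within aop, an 11646 bp stretch between ranked summits (chr2L:2164511-2176157) had no summit in the ranked list behind the series list. The own ranked list of replicate 1 had 1 summit there and that of replicate 2 had 11, with signals from 2.58 to 21.7. The ranked list that compares the replicates had 10.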
